A study of Mus musculus with 22 samples.

Results

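In a mouse pancreas series of 22 libraries, 8 carried the transcript profile of adult pancreas, and this account describes how those 8 differed from each other and whether their dioxin label went with any of the differences. The 8 were chosen from the counts themselves: summed over the probes of a gene, Pnlip, which encodes the pancreatic lipase made by mature acinar cells, had a higher count than Afp, which encodes the fetal serum protein alpha-fetoprotein. In the labels, C57Bl/6 females received subcutaneous injections of corn oil (control) or of TCDD, the most toxic of the dioxins, at 20 ng/kg per day, given 2 times per week from before mating to birth, and whole pancreas was taken from dams and newborn pups on the day of birth. The labels of the 8 read control dam (2 libraries, numbers 5 and 7), TCDD dam (2, numbers 8 and 11), TCDD female pup (1, litter 6) and TCDD male pup (3, litters 8, 10 and 11). No library labelled control pup was among them. The pups had no injection of their own, and the TCDD label of a pup stands for that of its mother. Labels and counts went against each other in 4 of the 8, which carry a pup label and an adult profile, so the chemical label of any of the 8 is uncertain and groups are named below as labelled.

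The exocrine pancreas consists mostly of acinar cells, which make digestive enzymes, with small numbers of duct cells, hormone-producing islet cells, blood vessels, connective tissue and, at its edges, fat and lymph nodes. Acinar cells also make the REG proteins, small secreted lectins whose genes are known to respond to inflammation and tissue stress. TCDD binds the aryl hydrocarbon receptor (AhR), a transcription factor whose best known target is Cyp1a1, a cytochrome P450 enzyme. In dissected whole tissue, fewer cells of a type and less RNA per cell cannot be told apart.

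Pnlip stood at 40765 to 48925 counts-per-million (CPM, counts divided by the library total) in the 8 libraries and Afp at 0 to 1.25 CPM. In the 14 other libraries, called newborn type here, Pnlip stood at 22.3 to 91.6 CPM and Afp at 468 to 1487 CPM, so no library lay near the line that separated them. Genes that the rule did not use gave the same picture: 8 fetal genes such as Igf2 and Dlk1 summed to 2.43 to 6.14 CPM in the 8 libraries against 1046 to 1594 CPM in the newborn type. Y-linked genes summed to at most 0.306 CPM in each of the 8, also in the 3 labelled male pup. Total counts were 14068304 to 19148777 per library, and 3 counts, taken as the floor, corresponded to 0.157 to 0.213 CPM. Between 69.8 and 74.7% of the counts fell on the 20 probes with the highest counts. No pair of the 8 agreed within sampling noise (chi-square per degree of freedom of at least 12.5), so all were kept as separate libraries. The names of the libraries begin with A for the control dams, C for the TCDD dams and D, F or G for the pup labels. Whatever those letters stand for cannot be told apart from the chemical label or from the stage label. In the order of deposit, which runs group by group (6 runs for 6 groups), the names of all 22 libraries were in alphabetical order. Whether this order bears on the match of labels and libraries was not tested.

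A pair of libraries stood apart in their faint signals. TCDD dam 11 and TCDD male pup 8 had 16711 and 16748 genes with at least 1 count, against 12692 to 13553 in the other 6, and 7737 and 7730 genes with 1 to 10 counts, against 3713 to 4508. Of the genes at 0 in all the other 6, 1970 and 2007 had counts in these 2 libraries, 1081 of them in both. The number of genes with 50 counts or more, 4971 and 5004, lay within the range of the others, 4860 to 5952. Results that could rest on this pair are given below with and without them.

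Gene by gene, a small set of genes varied strongly among the adult-type libraries, many of them immunoglobulin and immune cell genes. The variation was measured as the SD over the 8 libraries of log2(CPM + 1), a description of genes selected on these values, with no test. It exceeded 1 for 86 of 21450 genes (0.401%), and exceeded 0.5 for 1159 (5.40%). The same limits were passed by 17 and 390 genes among the 14 newborn-type libraries. Of the 86 genes, 29 were immunoglobulin genes (of 201 measured), 6 B cell genes (of 14) and 4 macrophage and dendritic cell genes (of 17). There were 3 lymph node stroma genes (of 5), 3 adipocyte genes (of 22) and 3 REG genes (of 7), and 28 were in none of the lists. None were acinar enzyme genes (29 measured) or islet genes. At the share of 0.401% over all genes, lists this short would rarely hold any, so their absence is a description only. The variation was not spread evenly over the libraries: control dam 7 had the highest level for 45 of the 86 genes and TCDD dam 8 for 21, and control dam 5 the lowest for 34. Without control dam 7, 54 genes exceeded an SD of 1, and 20 of the 30 most variable genes remained among the top 30. Without the pair of libraries with the most genes detected, 103 genes exceeded it and 27 of the 30 remained. The pseudocount of 1 CPM sets how far faint genes count: with 0.5 CPM 179 genes exceeded an SD of 1, and with 5 CPM 16 did.

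**Figure D1:**
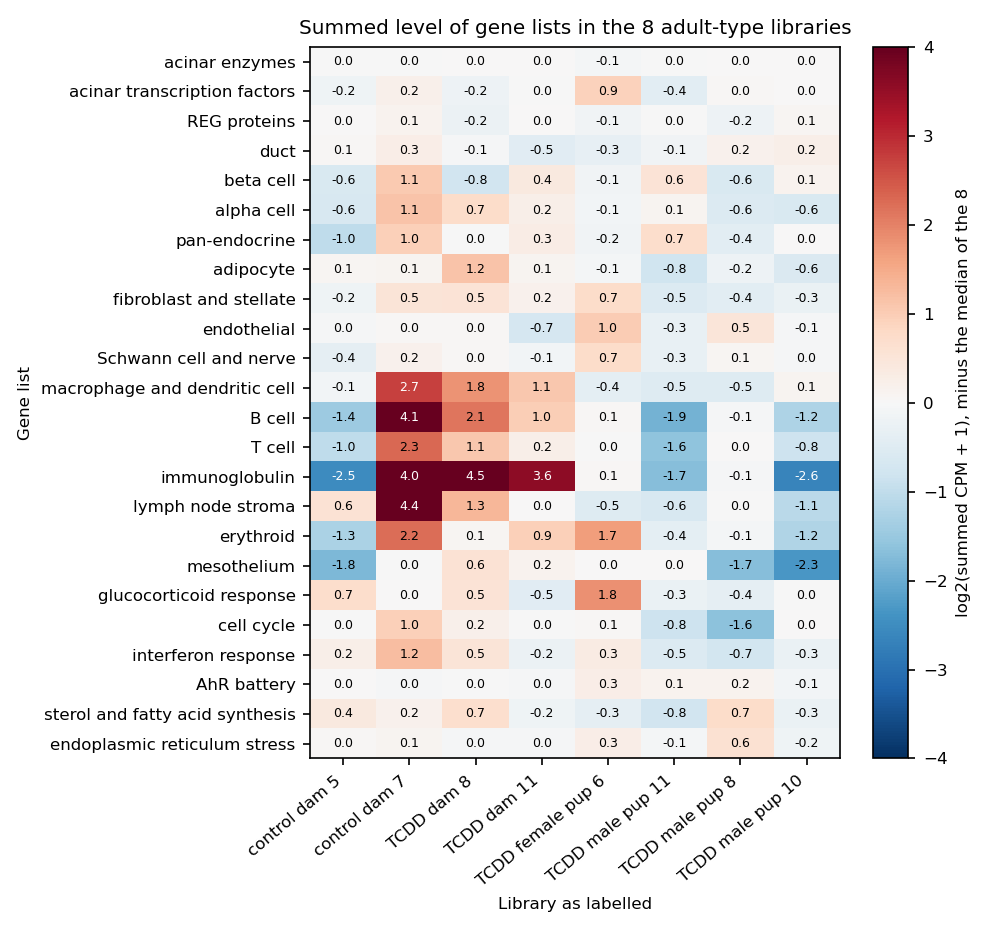
Summed level of 24 gene lists (rows) in the 8 adult-type libraries (columns, as labelled), as log2(summed CPM + 1) minus the median of the 8 (colour and printed value). The acinar enzymes differ little between libraries, whereas the B cell, immunoglobulin and lymph node lists are highest in control dam 7 or TCDD dam 8, and the glucocorticoid response list in TCDD female pup 6.

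The acinar enzymes set the scale for the rest. The 29 measured enzymes of the list, among them carboxypeptidases, elastases, trypsins and amylases, summed to 623950 to 663890 CPM, a ratio of 1.06 between the highest and the lowest library. They make up most of the total by which CPM divides, so their sum is bound to vary little. Their median SD was 0.154, and single enzymes varied more: Pla2g1b, a phospholipase, ranged from 537 to 1292 CPM and Cela3a, a faint elastase, from 1.31 to 8.19 CPM. Rnase1, a secreted ribonuclease, stood at 105400 to 135760 CPM and Cpb1, carboxypeptidase B, at 86295 to 117980 CPM. The receptor for cholecystokinin on acinar cells, Cckar, ranged from 26.5 to 33.9 CPM.

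The REG family held a steady abundant gene, Reg1, and 3 of the 86 most variable genes, Reg3a, Reg3b and Reg3g. Reg1 stood at 68524 to 85017 CPM, with an SD of 0.115. Reg3a was at 99.1 CPM in control dam 5 and 216 in control dam 7, at 13.8 and 48.8 in TCDD dams 8 and 11, at 240 in TCDD female pup 6, and at 31.5, 25.1 and 245 in TCDD male pups 11, 8 and 10. Its 3 highest libraries came from 3 labelled groups, and its 4 lowest from the TCDD dams and the TCDD male pups. Reg3b, a bactericidal lectin, had the same 3 libraries on top: 39.3 CPM in TCDD male pup 10, 39.1 in TCDD female pup 6 and 31.5 in control dam 7, with 16.5 in control dam 5, 16.0 in TCDD dam 11 and 1.65 to 6.98 in the remaining 3. Reg3g, the closely related lectin, was highest in TCDD female pup 6 (34.1 CPM), followed by TCDD male pup 10 (11.2), control dam 7 (7.82) and TCDD dam 11 (5.64), and stood at 0.673 to 2.86 in the other 4. TCDD dam 8 was the lowest library for Reg3a, Reg3b, Reg3g, Reg2 and Reg3d. Reg2 ranged from 670 CPM there to 4780 in TCDD male pup 10, and Reg3d from 821 to 2274 CPM in the same libraries. In the newborn type, Reg3a was at 0.458 to 1.90 CPM and Reg2 at 1.82 to 5.44 CPM, so even the lowest adult-type library lay above every newborn-type one for both genes.

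Over the 8 libraries, log2(CPM + 1) of Reg3a had a Pearson correlation of 0.972 with Reg3d, 0.943 with Reg3b, 0.875 with Reg3g, 0.866 with Reg2 and 0.508 with Reg1. These are descriptions over libraries that share depth and dissection, and the probes of such similar genes can share signal. Among the 1159 genes with an SD of at least 0.5, those most like Reg3a were Reg3d, Lmntd2, Serpina10, Ranbp3 and Reg3b. Serpina10, a serine protease inhibitor, followed it from 3.84 CPM in TCDD male pup 8 to 15.8 in TCDD female pup 6.

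**Figure D2:**
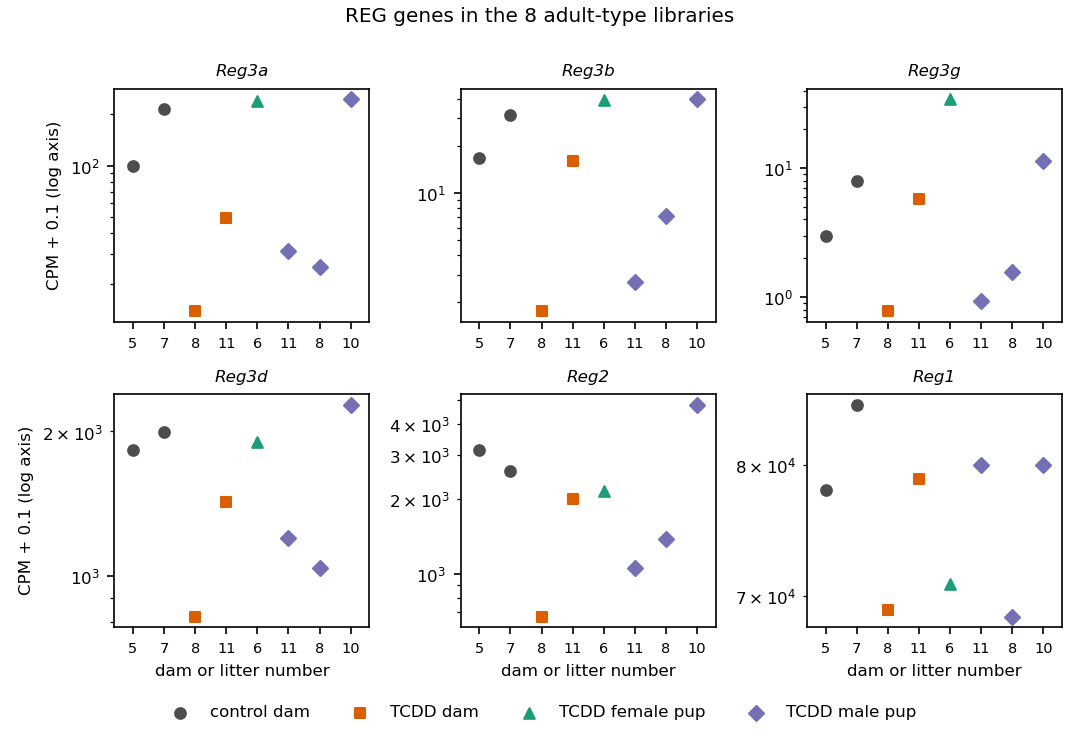
CPM + 0.1 on a log axis of 6 REG genes in each of the 8 adult-type libraries, ordered by label, with the dam or litter number below and the labelled group as colour and shape. TCDD dam 8 is lowest for the Reg3 genes and Reg2, while Reg1 stays between 68524 and 85017 CPM.

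Because the Reg3 genes varied together, the 250 bases before their start sites are shown, from RefSeq on build GRCm38.p6. Capitals mark CACCTG and TTTCCC on either strand (CAGGTG and GGGAAA on the other), the E-box and TC-box parts of the site bound by the acinar PTF1 complex. Its subunit Rbpjl was itself among the 86 most variable genes, with an SD of 1.02, while that of Ptf1a was 0.254. Whether the complex has a part in the variation of the Reg3 genes was not tested. Reg3a is at chr6:78380459-78380708 on the plus strand, Reg3b at chr6:78370635-78370884 on the plus strand, Reg3g at chr6:78468875-78469124 on the minus strand and Reg3d at chr6:78378866-78379115 on the minus strand, each written 5′ to 3′ towards the gene.
Reg3a: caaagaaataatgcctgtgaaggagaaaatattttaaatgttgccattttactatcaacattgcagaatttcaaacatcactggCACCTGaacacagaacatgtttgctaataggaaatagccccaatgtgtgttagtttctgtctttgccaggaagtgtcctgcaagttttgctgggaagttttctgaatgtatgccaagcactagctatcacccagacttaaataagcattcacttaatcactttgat
Reg3b: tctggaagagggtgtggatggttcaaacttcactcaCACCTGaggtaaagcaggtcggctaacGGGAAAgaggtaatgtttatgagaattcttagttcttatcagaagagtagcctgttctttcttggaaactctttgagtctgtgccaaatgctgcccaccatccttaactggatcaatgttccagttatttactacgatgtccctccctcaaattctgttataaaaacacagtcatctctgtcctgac
Reg3g: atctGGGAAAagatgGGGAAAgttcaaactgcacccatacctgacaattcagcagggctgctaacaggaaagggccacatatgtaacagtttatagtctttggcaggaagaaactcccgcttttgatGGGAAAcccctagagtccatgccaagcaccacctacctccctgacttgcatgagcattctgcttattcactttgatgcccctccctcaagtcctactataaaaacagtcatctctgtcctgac
Reg3d: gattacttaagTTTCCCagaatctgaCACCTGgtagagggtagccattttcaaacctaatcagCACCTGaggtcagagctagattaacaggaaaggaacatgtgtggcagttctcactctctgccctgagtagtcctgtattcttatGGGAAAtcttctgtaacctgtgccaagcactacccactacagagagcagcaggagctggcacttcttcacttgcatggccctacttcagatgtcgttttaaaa

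The Reg3a window held 1 CACCTG, from -166 to -161 before the start site, and no TTTCCC. The Reg3b window held CACCTG from -214 to -209 and TTTCCC, on the opposite strand, from -187 to -182. In Reg3g there were 3 TTTCCC matches and no CACCTG, and in Reg3d 2 of each. Of 32851 promoter windows of the same length in the table, 17.2% held CACCTG, 21.9% TTTCCC and 3.61% both. TTCNNNGAA, the core to which STAT factors bind, was found in 7.02% of windows, among them Reg3b (-129 to -121) and Reg3d (-238 to -230, where it overlaps the first TTTCCC). A match is a string of letters in a window and does not show binding.

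Immunoglobulin genes were the most variable class, and they split the libraries into 3 with high and 5 with low levels. This class, 201 genes annotated as immunoglobulin by GENCODE together with Jchain, was formed after the values had been seen. Summed, it stood at 440 CPM in control dam 7, 612 in TCDD dam 8 and 320 in TCDD dam 11, against 3.71 in control dam 5, 27.3 in TCDD female pup 6 and 7.36, 25.0 and 3.33 in TCDD male pups 11, 8 and 10. The 3 high libraries are 3 of the 4 labelled dam, and the lowest of the dam-labelled libraries lay within the pup-labelled range. Igkc, the kappa light chain constant region, was at 51.96, 54.7 and 36.9 CPM in the 3 high libraries and at 0 to 2.60 in the other 5. Jchain, which joins secreted antibody multimers and marks plasma cells, was at 34.8, 28.4 and 29.2 CPM in the same 3 and at 0 to 1.36 in the other 5. In the newborn type Igkc stood at 0.469 to 3.29 and Jchain at 0 to 0.606 CPM. The genes most like Igkc in pattern were Jchain, Crip1, Ighm, Ighv14-2 and Iglc3 (Pearson correlations of 0.968 to 0.995 over the 8 libraries).

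The 3 high libraries differed in which antibody genes they held. Gm43218, annotated as an immunoglobulin variable gene and the most variable gene of all, stood at 215 CPM in TCDD dam 8, 61.2 in TCDD dam 11 and 16.6 in control dam 7, and at 0 to 0.295 elsewhere. Igkv14-126 was highest in TCDD dam 11 (58.1 CPM, against 12.5 in TCDD dam 8 and 1.137 in control dam 7), and Igkv12-89 in TCDD dam 8 (45.6, against 5.41 and 0.213 in the other two). Among the heavy chain constant regions, control dam 7 led for Ighg2c (37.5 CPM), Igha (34.97) and Ighg2b (17.5), TCDD dam 8 for Ighg3 (19.4) and Ighm (19.8). Probes of similar variable genes can share signal, so the split between single V genes is uncertain.

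Control dam 7 also carried genes of lymph nodes and B cells that the other immunoglobulin-high libraries had at lower levels. Glycam1, an L-selectin ligand of the high endothelial venules of lymph nodes, was at 21.4 CPM there and at 0 in all other 7. Ccl21a, a chemokine that guides lymphocytes into lymph nodes, was at 24.9 CPM against 0.0640 to 3.30. The complement receptor gene Cr2 stood at 15.5 CPM against 0 to 1.59, the B cell receptor component Cd79b at 11.1 against 0 to 2.32, and Ltb, a lymphotoxin gene, at 12.8 against 0.104 to 2.69. The 14 B cell genes together had 75.1 CPM in control dam 7, 18.7 in TCDD dam 8, 7.96 in TCDD dam 11 and 0.209 to 3.66 in the other 5. The 18 T cell genes had 14.9, 5.87, 2.79 and 0.0522 to 2.27 CPM in the same order. Antigen presentation genes followed: Cd74, the invariant chain of class II molecules, was at 81.0 CPM in control dam 7, 36.3 in TCDD dam 8, 14.8 in TCDD dam 11 and 4.60 to 8.83 in the rest. Of the spleen list, Vcam1, an adhesion molecule, was at 18.3 CPM in control dam 7 (0.576 to 4.10 elsewhere), while the spleen genes Tlx1, Spic and Nkx2-5 were at or near 0 in all 8, at most 0.116 CPM. Cd5l, a gene of tissue macrophages in the same list, was at 1.77 CPM in TCDD dam 8, 0.891 in TCDD dam 11 and 0.711 in control dam 7, and at 0 to 0.177 in the other 5.

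Several fat genes separated the libraries by their stage label without overlap. Of 13 adipocyte genes tested over all 8 libraries, 5 were lower in every pup-labelled library than in any dam-labelled one. Over all 8868 genes tested, this held for 135. The 5 were Adipoq, Retn, Cfd, Plin1 and Car3, at no more than 0.448 CPM in any pup-labelled library. They met the low-count filter of the test through the dam-labelled libraries, so their share is a description only. Adipoq, the hormone adiponectin made by fat cells, stood at 4.10, 4.90, 17.3 and 7.48 CPM in the dam-labelled libraries (control 5 and 7, then TCDD 8 and 11). In the 4 libraries labelled pup it stood at 0, 0, 0 and 0.128 CPM, the last from 2 counts. Retn, the hormone resistin, was at 1.69, 1.78, 6.61 and 1.37 CPM in the dam-labelled libraries and at 0 to 0.0581 in the pup-labelled ones. Cfd, the serine protease adipsin, was at 1.50, 2.06, 13.1 and 4.28 against 0 to 0.313 CPM. Outside the adipocyte list, Me1, malic enzyme, which supplies NADPH for fatty acid synthesis, was at 9.51, 10.2, 36.5 and 5.76 against 0.649 to 1.92 CPM. The newborn type had 0 to 0.298 CPM of Adipoq but 16.1 to 27.6 of Me1. Fabp4, which fat cells share with capillary endothelium and macrophages, did not separate the labels: 13.2 to 37.7 CPM in the dam-labelled libraries and 5.29 to 15.3 in the others. Nor did Cebpa (20.97 to 32.7 against 20.99 to 32.6 CPM) and Gpd1 (7.425 to 8.74 against 4.23 to 8.32 CPM), of the same list. TCDD dam 8 was highest for all of these genes but Gpd1, and its 22 adipocyte genes summed to 143 CPM, against 35.9 to 68.7 in the other 7. The genes most like Adipoq were Trf, Cfd, Retn, Me1 and Pygl (Pearson correlations of 0.944 to 0.968).

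**Figure D3:**
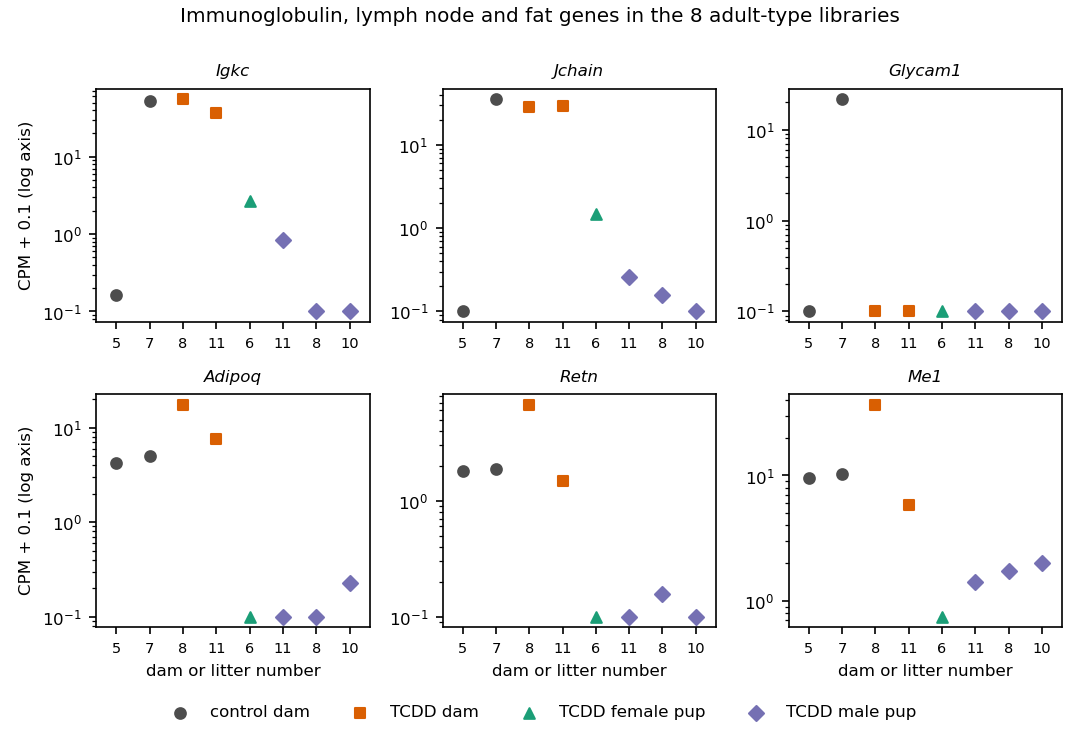
CPM + 0.1 on a log axis of an immunoglobulin light chain (Igkc), the antibody J chain, a lymph node gene (Glycam1) and 3 genes of fat and lipid synthesis (Adipoq, Retn, Me1) in each of the 8 adult-type libraries. Control dam 5 is low for the antibody genes but has Adipoq at 4.10 CPM, above every library labelled pup.

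Islet hormones varied within labels that hold more than 1 library, though not every hormone in every label. Ins1 was at 23.0 and 77.8 CPM in the control dams, 11.8 and 48.5 in TCDD dams 8 and 11, 29.0 in TCDD female pup 6 and 57.0, 19.6 and 37.7 in TCDD male pups 11, 8 and 10. Ins2 followed Ins1 (Pearson correlation 0.952), from 50.5 CPM in TCDD dam 8 to 174 in control dam 7. Gcg, the glucagon gene, was lowest in control dam 5 (6.58 CPM) and highest in control dam 7 (45.5) and TCDD dam 8 (35.5), so TCDD dam 8 was the lowest library for both insulin genes and next to the highest for glucagon. The correlation of Ins1 with Gcg was 0.315. Ppy, pancreatic polypeptide, which islets of the duodenal lobe hold most of, was highest in TCDD male pup 10 (20.0 CPM) and lowest in TCDD male pup 8 (1.74). Its nearest genes were Cxcl14, Tpx2, Clca3a1, Mcm6 and Smc4, with correlations of 0.888 for Cxcl14 and 0.711 to 0.743 for the other 4. Sst, somatostatin, ranged from 3.02 to 20.3 CPM. The 2 control dams were alike for Ppy (12.8 and 11.9 CPM), and the 2 TCDD dams were alike for Sst (8.38 and 7.96 CPM). All 17 beta cell genes together gave 84.9 to 302 CPM, below the 920 to 1892 of the newborn type. Tph1 and Tph2, serotonin-synthesis enzymes that rise in beta cells during pregnancy, were at or below 0.157 and 0.142 CPM in the 8 libraries, under the floor of 3 counts or at it.

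Cell division genes ranged widely among the 8. The 33 genes summed to 404 CPM in control dam 7, 203 to 238 in control dam 5, TCDD dams 8 and 11, TCDD female pup 6 and TCDD male pup 10, 116 in TCDD male pup 11 and 65.7 in TCDD male pup 8. Mki67, the proliferation marker Ki-67, was at 15.6 CPM in control dam 7, 1.25 and 1.69 in TCDD male pups 11 and 8, and 5.44 to 7.17 in the other 5. Top2a, which untangles replicated DNA, was at 34.9 CPM in control dam 7 and 3.20 in TCDD male pup 8. Control dam 7 was thus on top both for division genes and for the B cell genes given above, and whether the second has a part in the first was not tested.

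**Figure D4:**
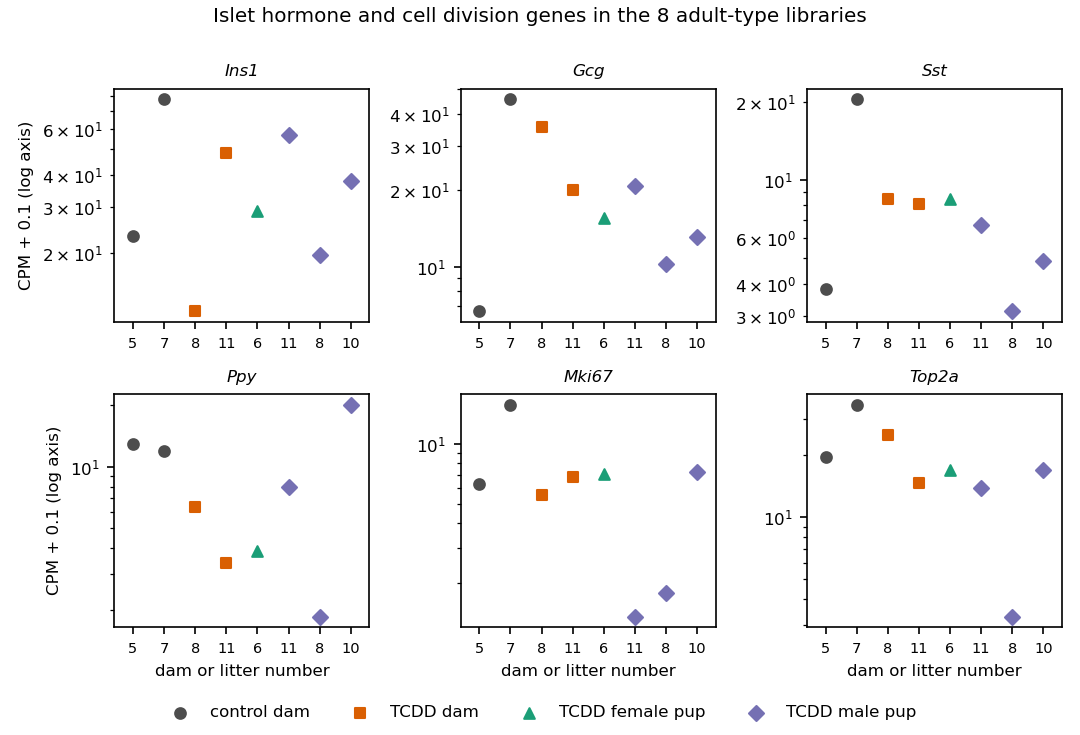
CPM + 0.1 on a log axis of 4 islet hormone genes and 2 cell division genes in each of the 8 adult-type libraries. Libraries of the same labelled group differ several-fold for some of these genes, and TCDD male pup 8 is low for Top2a (3.20 CPM).

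A few libraries had patterns of their own outside these classes. In TCDD female pup 6, acinar transcription factors were high: Rbpjl, the acinar subunit of the PTF1 complex, was at 42.8 CPM (4.54 to 28.0 elsewhere), Xbp1, a regulator of secretory capacity, at 283 (117 to 163) and Nr5a2 at 27.8 (9.36 to 16.9), while Ptf1a, at 15.3 CPM, lay within the range of the others (13.0 to 22.7). Of 15 genes known to respond to glucocorticoids, 11 were highest there too, among them Mt2, a metallothionein, at 477 CPM against 54.9 to 227, Zbtb16 at 7.08 against 0.522 to 1.71 and Fkbp5 at 32.1 against 7.90 to 22.3. Of the other 4, 2 were highest in control dam 7 and 2 in TCDD dam 8, where Angptl4 was at 6.97 CPM and Ddit4 at 4.34, against 2.83 and 2.60 in TCDD female pup 6. Highest in TCDD female pup 6 were also the fasting-related mitochondrial kinase Pdk4 (7.67 CPM against 0.213 to 2.05) and the endothelial receptor Flt1 (12.6 against 1.60 to 4.65). These levels are not scaled by TMM, and the TMM factor of TCDD female pup 6 was the largest, 1.29 against 0.835 to 1.18. Scaling by TMM would lower every level there relative to the other libraries. TCDD female pup 6 was highest for 12 of 29 acinar enzymes and 8 of 14 fibroblast genes, and for 1 of 33 cell division genes. How many of all genes were highest there was not counted. TCDD male pup 8 had the highest level of Hspa5, a chaperone of the endoplasmic reticulum, at 1374 CPM against 553 to 851, and of Scd2, a fatty acid desaturase, at 34.9 CPM against 3.95 to 14.7. TCDD male pup 10 had the highest levels of the clock genes Dbp (20.8 CPM against 2.66 to 11.7) and Nr1d1 (6.40 against 0.456 to 2.06). Haemoglobin RNA, which comes with blood, varied from 3.78 CPM of Hba-a2 in control dam 5 to 53.5 in control dam 7. AC132444.6, a gene with no list, was high in the pair of libraries with the most genes detected, 83.9 CPM in TCDD dam 11 and 199 in TCDD male pup 8, against 10.7 to 25.1 in the other 6.

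The comparison of 6 TCDD-labelled with 2 control-labelled libraries asks whether a maternal dioxin label goes with a change of pancreas transcripts at birth. No gene passed: edgeR's quasi-likelihood test called 0 of 10018 genes tested (0.0%) at an adjusted p under 0.05. At an unadjusted p under 0.05 there were 312 genes (125 higher and 187 lower with the TCDD label), DESeq2 called 1 and limma-voom 0. Without the low-count filter, 80 of 19896 genes passed, 22 higher and 58 lower. Leaving out the pair of libraries with the most genes detected also gave 0 calls. All 4 libraries with a pup label are on the TCDD side, so the chemical label is in part the stage label.

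Genes of the AhR did not pass in either direction. Cyp1a1 was at 0.586 and 0.640 CPM in the control dams, 0.306 and 0.416 in TCDD dams 8 and 11, 1.71 in TCDD female pup 6 and 0.157, 0.407 and 0.128 in TCDD male pups 11, 8 and 10. These levels rest on 2 to 29 counts per library, at or under the floor of 3 in TCDD male pups 11 and 10, so its test is weak. The control values lay inside the TCDD-labelled range, and the difference was -0.24 ± 0.85 on the log2 scale (SE, edgeR adjusted p = 0.999). Cyp1a2 was at 0 to 0.523 CPM, Cyp1b1 at 0.104 to 0.924 and Nqo1, a quinone reductase, at 0 to 0.836, all 3 too low to be tested in this comparison. Ahrr, the receptor's repressor, had no count in any of the 8 libraries. Tiparp, a ribosyltransferase induced by the receptor, was at 1.24 and 3.77 CPM in the control dams and at 1.78 to 3.54 in the TCDD-labelled libraries. Its difference was 0.26 ± 0.37 (SE, log2, edgeR adjusted p = 0.999). Of the 19 AhR genes 9 were tested, 0 passed, and 2 of the 9 had a value below 0, with a median of 0.20 against 0.01 over all genes tested.

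The 12 genes with the smallest p show what lay nearest to a difference. Ccne2, cyclin E2, which drives entry into DNA replication, was at 8.07 and 9.74 CPM in the control dams and at 2.54 to 3.77 in the 6 TCDD-labelled libraries. The groups did not overlap, and the difference was -1.42 ± 0.25 (SE, log2, edgeR adjusted p = 0.696). DESeq2 put it past the threshold (adjusted p = 0.0467). Mcm2 (8.72 and 11.4 against 3.84 to 6.67 CPM) and Fen1 (3.84 and 5.19 against 1.09 to 2.71 CPM), both parts of the replication machinery, and Abhd10 (6.51 and 5.62 against 2.30 to 3.39 CPM) did not overlap either. Of all 10018 genes tested, 405 were lower in every TCDD-labelled library than in both control dams, and 98 were higher. Genes picked for a small p nearly have to show such a gap. The interferon-inducible GTPase gene Tgtp1 stood at 8.01 and 10.2 CPM against 2.09 to 5.50. Ccl21a and Gimap6, a GTPase gene of lymphocytes, also had values below 0, and both were highest in control dam 7, the library with the most B cell RNA. For Serpina1e, Alb, Acta1 and Gm4070 the log2 differences were -3.86, -3.06, -1.91 and -1.19. Serpina1e stood at 1.69 and 0.924 CPM in the control dams against 0 to 0.178, and Alb at 4.36 and 0.995 against 0 to 0.653. In the TCDD-labelled libraries Serpina1e had 0 to 3 counts each, at or under the floor, and Alb 0 to 11. Serpina1e met the low-count filter through the control dams. The sizes of these differences are thus uncertain for Serpina1e and Alb. Aaed1 alone had a value above 0, at 0.130 and 0.284 CPM in the control dams against 0.679 to 3.60. The edgeR adjusted p was 0.999 for all 11 of these genes other than Ccne2.

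Cell division genes had values below 0 without exception. Of 33 genes 31 were tested, 0 passed, 4 had an unadjusted p under 0.05 and all 31 had a value below 0, with a median of -0.69. Over all genes tested, 4815 of 10018 lay below 0 and the median was 0.01. The summed levels overlapped between the groups, at 205 and 404 CPM in the control dams and 65.7 to 238 with the TCDD label. Interferon genes had 13 of 15 tested values below 0 (median -0.64, 0 passed), and their sums were 56.3 and 113 CPM against 28.2 to 68.4. Control dam 7 alone was highest for 28 of the 33 cell division genes and for 13 of 18 interferon genes with counts. By the stage label over all 8 libraries, 29 of 29 tested division genes lay below 0 (median -0.86). The same held for 13 of 14 interferon genes (median -0.79). These signs are thus not particular to the chemical label. Integrated stress response genes lay on the other side, with 0 of 21 tested values below 0 (median 0.34, 0 passed), and their sums overlapped, at 1424 and 1105 CPM in the control dams against 1356 to 2562. No insulin, glucagon or REG gene passed. The differences were smaller than their standard errors for the genes given here: Ins1 by -0.33 ± 0.52, Ins2 by -0.22 ± 0.42, Gcg by -0.19 ± 0.54 and Reg3a by -0.59 ± 0.79 (SE, log2, edgeR adjusted p = 0.999 each). Ins1, Ins2 and Gcg turned to the higher side when control dam 7 was left out. Fgf21, a hormone that acinar cells secrete, was at 8.40 and 7.25 CPM in the control dams and at 7.73 to 27.8 with the TCDD label, highest in TCDD dam 8.

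**Figure D5:**
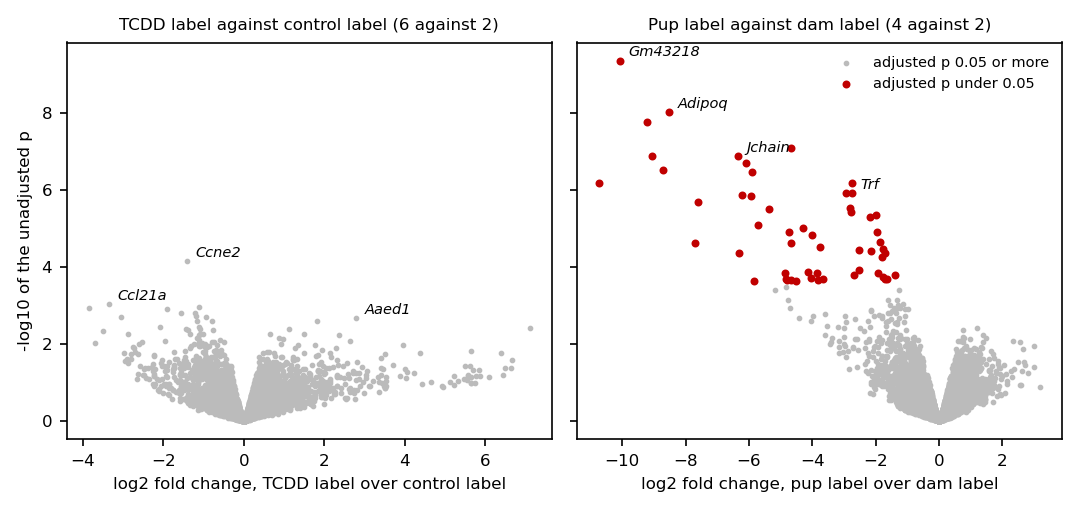
Log2 fold change (horizontal) against -log10 of the unadjusted p (vertical) for each gene tested, for the TCDD label over the control label (left) and, among TCDD-labelled libraries, for the pup label over the dam label (right). Red points have an adjusted p under 0.05, 0 on the left and 54 on the right, where all lie below 0.

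With the chemical label held constant, the libraries labelled pup could be set against those labelled dam, although both have an adult profile. Among the 6 TCDD-labelled libraries (4 pup, 2 dam), 54 of 9686 genes passed in edgeR's test, all lower with the pup label (0.558%), and 532 had an unadjusted p under 0.05. The 54 comprised 20 immunoglobulin genes, 6 adipocyte genes and 6 macrophage and dendritic cell genes, and 40 were in one of the lists. In 53 of the 54 the groups did not overlap, which genes that pass such a test nearly have to show. Over all genes tested, every pup-labelled library lay below both dam-labelled ones for 507 (5.23%). Of the 201 immunoglobulin genes 36 met the low-count filter, which the 2 dam-labelled libraries alone could satisfy, so the share that passed is a description only. The same holds for 32 of the 54 genes, which fewer than 2 pup-labelled libraries held at the level that filter asks for, among them 19 of the 20 immunoglobulin genes and 5 of the 6 adipocyte genes. Ighv11-2 was at 5.08 and 18.4 CPM in the dam-labelled libraries and had no count in the 4 labelled pup, at least 272-fold lower when set against 3 counts over that group. Gm43218 was lower by 10.08 ± 0.57 on the log2 scale (SE, edgeR adjusted p = 4.2e-06), and Igkv14-126, Ighv1-11 and Igkv12-89 by 9.21, 9.07 and 8.70. Adipoq followed, lower by 8.51 ± 0.63 (adjusted p = 4.59e-05), a ratio of dam to pup label of 425 with a counting interval of 117 to 3519.

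At the other end of the 54 stood genes with smaller differences: Slpi fell by 1.78, Fabp4 by 1.75, Tyrobp by 1.71, Fcgr3 by 1.71, Cd44 by 1.65 and Crip1 by 1.38 on the log2 scale (edgeR adjusted p of 0.0103 to 0.0403). Tyrobp and Fcgr3 encode an adaptor and an Fc receptor of macrophages. The 6 adipocyte genes were Adipoq, Retn, Cfd, Plin1, Car3 and Fabp4, and 13 of 22 in that list were tested. All but Fabp4 met the low-count filter through the dam-labelled libraries. The macrophage genes were Ccl6, Lyz2, Cd74, H2-Ab1, C1qb and H2-Aa. Lyz2, lysozyme, was at 9.42 and 7.78 CPM against 1.63 to 2.40, and C1qb, a complement subunit, at 19.6 and 13.96 against 3.37 to 6.85. No acinar enzyme (29 tested), duct gene (9 tested), REG gene (6 tested) or islet gene passed in this comparison. With 0.558% of all genes passing, lists this short would rarely hold any, so this is a description only. Of the cell division genes 30 were tested and 0 passed, with all 30 values below 0 (median -0.71). This comparison shares its 6 libraries with that of the chemical label.

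The control dams had no part in that fit. Control dam 7 lay above every pup-labelled library for 53 of the 54 genes, and for 29.3% of all 9686 genes tested. Control dam 5 did so for 15 of the 54, and for 10.4% of all genes tested. The 15 held 0 of the 20 immunoglobulin genes and 15 of the other 34. When all 8 libraries were fitted by stage label, a comparison added after the data had been seen, 7 of 8868 genes passed, all lower with the pup label (0.0789%): Adipoq, Retn, Cfd, Cyp2e1, Me1, Trf and Pygl. Of these, Adipoq, Retn, Cfd and Cyp2e1 stood at no more than 0.407 CPM in any pup-labelled library. They met the low-count filter through the dam-labelled libraries, so that they passed is a description only. Trf, transferrin, was at 6.77, 4.62, 9.42 and 5.11 CPM in the dam-labelled libraries and 0.836 to 1.36 in the others, and Pygl, glycogen phosphorylase, at 4.17, 4.98, 11.3 and 3.33 against 1.15 to 1.65. Cyp2e1, a cytochrome P450 of liver and fat, was at 2.60, 1.137, 12.1 and 2.97 against 0 to 0.407 CPM. Trf and Cyp2e1 were held in the liver list, in which Alb stood at 0 to 4.36 CPM in the 8 libraries and at 88.7 to 348 in the newborn type. The tissue source of Trf and Cyp2e1 was not tested. Adipoq fell by 7.91 ± 0.78 and Trf fell by 2.53 ± 0.30 (SE, log2, edgeR adjusted p = 0.000369 and 0.00203), and both passed in 11 of the 12 alternatives of this comparison, the exception being limma-voom, which called 0 genes. Retn passed in 9 of the 12, Me1 in 6, Pygl in 4 and Cfd and Cyp2e1 in 3 each. The alternatives reuse the same libraries, so they are no separate support.

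The count of 54 depended on single libraries: it was 13 without TCDD dam 8 and 33 without TCDD male pup 10, and 70 without the pair of libraries with the most genes detected, 1 of them (Tmc5) higher with the pup label. With the number of dam and litter as a block, which leaves litters 8 and 11, 61 genes passed, all lower with the pup label, and the same 4 libraries without the block gave 31. The count over all 8 libraries was 2 to 7 when any library but control dam 5 was left out, and 86 without control dam 5.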

How the data were processed

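TempO-Seq, a probe ligation assay for a whole transcriptome panel, was run on whole pancreas and sequenced on an Illumina NextSeq500, per the labels' protocols. The submitters' processing notes name bcl2fastq 2.17.1.14. Neither the aligner nor the build was given in the sources used here. The authors deposited raw counts for 30146 probes in 22 libraries, with no normalization. Counts were summed over the probes of each of 21450 gene symbols. Without molecular identifiers, counts are reads, and floors and intervals cover counting error only.

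Fits used R 4.3.3 and edgeR 4.0.16 (filterByExpr, TMM, glmQLFit, glmQLFTest, two-sided, Benjamini-Hochberg over all genes tested, threshold 0.05) on the libraries compared alone, with DESeq2 1.42.0 and limma 3.58.1 as alternatives, and were tested on simulated data. Values after ± are standard errors of log2 fold changes. CPM is scaled by the total count and not by TMM, and SDs use log2(CPM + 1). Gene lists held 43 sets of cell type markers and pathways. The members and lists were chosen with earlier results of these data known. Named genes were the 30 with the largest SD, up to 5 members by SD and up to 3 by mean from each list, the 12 smallest p for the chemical label, the 6 largest and 6 smallest fold changes among genes passing for the stage label, and a set of AhR, islet, REG and fat genes. The single-library patterns and the gene AC132444.6 were named after their values were seen.

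Labels give separate animals as replicates. The labels' numbers tie a dam to its litter. Over 9686 genes, the difference between TCDD dams 8 and 11 had a correlation of -0.134 with that between TCDD male pups 8 and 11. Leaving out each library, other scalings, filters, pseudocounts and single probes were tried.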

Additional observations from a re-analysis of the deposited data

Results flagged for a closer look

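Among 44 list sums and 49 genes looked at over the 8 adult-type libraries, 12 had 1 library set apart from the other 7 by more of the whole range than Dixon's 95% critical value allows. Chance alone sets apart about 1 in 20 of items that follow a normal distribution and were chosen without regard to their values. Whether the levels used here, as log2(CPM + 1), follow one was not tested, and all 12 stood apart on the high side. That rate does not apply to the 30 of the 49 genes that were chosen for the largest SD over the same libraries, and 6 of the 8 genes set apart are among those.

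In control dam 7 these were the lymph node stroma list (59.9 CPM, others 0.320 to 5.99), Ccl21a (24.9 CPM), Glycam1 (21.4 CPM, 0 in the others), Igha (34.97 CPM, others 0 to 4.40), Ighg2b (17.5 CPM, others 0 to 2.81) and Tph2, whose 0.142 CPM lies under the floor. In TCDD dam 8 they were the adipocyte list (143 CPM, others 35.9 to 68.7), Ighg3 (19.4 CPM, others 0 to 0.713) and Ighv7-3 (19.3 CPM, others 0 to 1.35). TCDD female pup 6 stood apart for the acinar transcription factors (396 CPM, others 154 to 240) and for Cyp1a1 (1.71 CPM, others 0.128 to 0.640). TCDD male pup 10 stood apart for 8 stomach genes, with 1.92 CPM against 0 to 0.653, of which Tff1 gave 1.41.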

How the results depend on the processing

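For the chemical label, DESeq2 called 1 gene (Ccne2), the control dams against the pup-labelled libraries 1 (Adipoq), and a fit with no filter 80; leaving out a library gave 0 to 1 (Glycam1, without control dam 5), and the RLE, total count, limma-voom, single probe and dam-only fits gave 0. Some log2 differences changed sign: Gcg by limma-voom (0.11) and among dam labels only (0.40), and, with a library left out, Tiparp (-0.24 to 1.06, below 0 without control dam 5), Ins1 (-0.88 to 0.58), Ins2 (-0.77 to 0.69) and Gcg (-0.95 to 1.55), these 3 above 0 without control dam 7. For the stage label among TCDD-labelled libraries, the count of 54 became 33 with the total count alone, 23 with limma-voom, 147 with no filter (8 higher), 31 in litters 8 and 11 with no block and 7 over all 8 libraries. Leaving out a library gave 13 to 60, and without TCDD male pup 11 Gm21887 and Gm47283 were higher with the pup label. The replicate block gave 61, of which 46 were among the 54, and the block with crossed numbers 153, 5 of them higher. Over all 8 libraries the count of 7 became 40 with DESeq2, 0 with limma-voom, 4 with the total count and 2 without the pair of libraries with the most genes detected, and 2 to 86 without a library. The cause of these changes was not tested. None of the 54 and 7 genes called in the stage comparisons changed sign. The number of genes with an SD over 1 was 179 with a pseudocount of 0.5 CPM and 16 with 5 CPM, and 54 to 102 without a library. The 2 control-labelled libraries limit the precision for the chemical label.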
